A study of Mus musculus with 7 samples.

Results

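Chromatin accessibility was described at 36 genes that build, feed and empty the autophagosome, in LSK cells of adult mice born to diabetic or to normal pregnancy. The 36 were taken by name and are 36 of the 21938 protein-coding genes in the mm10 annotation used. They comprise the initiation kinase complex (Ulk1, Ulk2, Atg13, Atg101, Rb1cc1), the class III lipid kinase complex (Becn1, Pik3c3, Pik3r4, Atg14), the lipid transfer proteins and phosphoinositide readers (Atg9a, Atg9b, Atg2a, Atg2b, Wipi1, Wipi2), the conjugation genes (Atg3, Atg4a, Atg4b, Atg4c, Atg4d, Atg5, Atg7, Atg10, Atg12, Atg16l1, Atg16l2), the ATG8 family (Map1lc3a, Map1lc3b, Gabarap, Gabarapl1, Gabarapl2), the cargo receptors Sqstm1 and Optn, and the lysosomal genes Tfeb, Lamp1 and Lamp2.

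Accessibility was measured by ATAC-Seq, which maps open DNA by where a transposase inserts its adapters, in 4 WTAkita and 3 Ctrl libraries, each from 50000 sorted cells. LSK cells, the Lineage- c-Kit+ Sca-1+ fraction of bone marrow, hold the hematopoietic stem cells and the multipotent progenitors. WTAkita mice were C57BL/6 offspring that did not inherit the Ins2 Akita mutation from their Ins2 Akita/+ mothers, which are diabetic, and Ctrl mice were WT offspring of normal pregnancies from a similar breeding scheme. Per the study's methods, heterozygous females and their WT littermates both received a high-fat diet for 3 weeks before mating with C57BL/6 males, and all offspring were kept on regular diet and studied at 8 to 12 weeks of age. No offspring in either group carried the mutation, so the groups differ in the mother and not at Ins2. The methods describe pooled bone marrow for sorting, and how many mice contributed to each library was not stated there. The p-values therefore rest on the variation among libraries, which may be technical in part.

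Autophagy encloses cytoplasm, damaged mitochondria and protein aggregates in a double membrane and delivers them to the lysosome for breakdown. The ULK kinase complex starts the process when nutrients are short, the PIK3C3 lipid kinase marks the growing membrane with phosphatidylinositol 3-phosphate (PI3P), and an enzyme cascade attaches ATG8 proteins such as LC3 to that membrane. In hematopoietic stem cells, autophagy is known to clear active mitochondria and to help keep the cells quiescent.

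Every one of the 36 genes had an accessible promoter in all 7 libraries. A promoter peak is a MACS2 peak within 1000 bp of any annotated start of the gene, and its level is the highest deposited fold enrichment, the ratio of the pileup at the summit to the background estimated around it. Across libraries, 16142 to 16265 protein-coding genes had such a peak. The strongest promoter peak lay at one place in all libraries for 34 of the 36, its summit was within 250 bp of an annotated start for 32, and it held between 97 and 677 tags at the summit over all members and libraries. Median width was 1024 bp for the members and 968 bp for all genes tested.

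Promoter sequences are shown for 6 members, the ones with the E-box CACGTG near the summit and the ones with the largest promoter differences described further on. CACGTG is the core of the CLEAR element, through which TFEB is known to bind lysosomal and autophagy genes. RefSeq windows of GRCm38.p6 (mm10), running from 250 bases before to 50 bases after the start, were matched by symbol for 30 of the 36 members (83.3%) and for 12179 of the 15825 genes tested (77.0%). Rb1cc1, Map1lc3a, Atg12, Atg16l1, Becn1 and Pik3c3 were not matched. All 6 windows lie inside the promoter peak of their gene. Capitals mark the searched motifs on either strand, which were CACGTG, its longer form TCACGTGA (which contains the shorter one), the FOXO element GTAAACA, the CRE TGACGTCA, the ETS motif CCGGAAGT and the CCAAT box.
The Lamp1 window lies at chr8:13158911-13159210 on the plus strand, the Atg3 window at chr16:45158579-45158878 on the plus strand and the Atg5 window at chr10:44268089-44268388 on the plus strand. The Atg14 window lies at chr14:47568385-47568684 on the minus strand, the Pik3r4 window at chr9:105642745-105643044 on the plus strand and the Wipi2 window at chr5:142629334-142629633 on the plus strand.
Lamp1: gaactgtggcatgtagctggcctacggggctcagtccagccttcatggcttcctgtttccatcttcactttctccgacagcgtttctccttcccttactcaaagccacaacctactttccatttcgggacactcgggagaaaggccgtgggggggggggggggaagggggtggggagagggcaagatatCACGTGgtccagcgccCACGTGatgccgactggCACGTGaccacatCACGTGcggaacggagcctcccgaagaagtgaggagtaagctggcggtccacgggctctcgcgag
Atg3: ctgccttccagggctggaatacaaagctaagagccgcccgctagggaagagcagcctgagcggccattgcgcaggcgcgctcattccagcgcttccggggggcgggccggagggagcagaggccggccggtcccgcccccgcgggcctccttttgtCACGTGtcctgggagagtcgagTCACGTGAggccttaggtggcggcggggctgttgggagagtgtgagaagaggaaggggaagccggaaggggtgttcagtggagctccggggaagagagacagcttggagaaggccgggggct
Atg5: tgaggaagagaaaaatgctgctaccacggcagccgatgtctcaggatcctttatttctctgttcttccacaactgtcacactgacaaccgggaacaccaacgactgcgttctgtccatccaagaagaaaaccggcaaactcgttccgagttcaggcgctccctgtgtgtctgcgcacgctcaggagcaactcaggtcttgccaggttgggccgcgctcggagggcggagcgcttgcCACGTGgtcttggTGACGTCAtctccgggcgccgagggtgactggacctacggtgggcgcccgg
Atg14: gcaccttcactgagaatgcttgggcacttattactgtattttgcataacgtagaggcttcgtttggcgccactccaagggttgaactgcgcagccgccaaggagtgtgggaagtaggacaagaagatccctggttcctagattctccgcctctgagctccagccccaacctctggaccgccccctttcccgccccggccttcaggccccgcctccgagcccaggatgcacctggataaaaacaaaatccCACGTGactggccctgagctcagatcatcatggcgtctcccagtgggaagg
Pik3r4: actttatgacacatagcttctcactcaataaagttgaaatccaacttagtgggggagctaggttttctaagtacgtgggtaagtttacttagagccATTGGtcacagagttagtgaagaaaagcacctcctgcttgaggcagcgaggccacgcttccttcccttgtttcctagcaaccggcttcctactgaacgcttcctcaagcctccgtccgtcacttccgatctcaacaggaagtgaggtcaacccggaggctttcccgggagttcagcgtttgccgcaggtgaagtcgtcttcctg
Wipi2: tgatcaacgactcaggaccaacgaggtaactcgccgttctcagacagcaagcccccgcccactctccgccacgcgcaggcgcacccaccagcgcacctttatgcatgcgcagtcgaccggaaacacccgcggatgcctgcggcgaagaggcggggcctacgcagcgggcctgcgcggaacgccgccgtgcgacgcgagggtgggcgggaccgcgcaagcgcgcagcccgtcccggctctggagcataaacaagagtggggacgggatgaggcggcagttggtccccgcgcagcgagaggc

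Lamp1 carried 4 copies of CACGTG, at bases -61, -45, -28 and -15 counted from 0 at the start, each 12 to 58 bp from the summit of its peak. Only 4 of the 12179 windows (0.0328%) held at least 4 copies. The Atg3 window held 2 copies, 23 and 46 bp from the summit, and the nearer one was the full TCACGTGA. The copies of Atg14 and Atg5 lay 4 and 66 bp from the summit, and Atg5 also held a CRE at base -1, next to the start. The fifth window with a copy, that of Atg7, lies 27898 bp from the median summit of the Atg7 promoter peak and does not describe it.

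Over all 30 windows, CACGTG occurred in 5 (16.7%), against 9.77% of the windows of all genes tested, and TCACGTGA in 1 (3.33%), against 1.67%. The CRE was found in the windows of Atg5 and Atg16l2 (6.67%, against 365 of the 12179 windows), the ETS motif in those of Atg101 and Gabarapl2 (6.67%, against 7.32%) and the CCAAT box in 8 (26.7%, against 37.6%). GTAAACA was in none, against 2.40% of all windows. Base composition was close to that of other genes, with a median GC content of 61.9% for the members and 61.0% for all genes, and a median observed over expected CpG ratio of 0.738 for the members and 0.740 for all genes. The windows of Atg16l2, Atg9b, Tfeb and Ulk1 also lie 4379 to 21359 bp from the median summit of the strongest promoter peak, and that of Map1lc3b lies 1108 bp from it. Those of Atg16l2, Tfeb and Ulk1 still lie inside accessible start sites called in all 7 libraries. These matches describe letters and not binding.

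The 36 promoters ranked above the middle of all promoters, and the order followed roles in part. Within a library, the median member stood at the 58.1st to 64.1st percentile of all genes with a promoter peak, 13 to 15 members were above the 75th percentile and 3 to 5 at or below the 25th. There were 7 members above the 75th percentile in every library. Median fold enrichment over the members of a role was 21.6 for the lipid kinase complex, 19.7 for the lysosomal genes, 19.2 for the conjugation genes, 15.8 for the initiation complex, 14.0 for the lipid transfer proteins and PI3P readers, 12.4 for the receptors and 9.90 for the ATG8 family. Single members averaged 10.9 to 25.5 in conjugation, 11.3 to 19.4 in initiation and 4.88 to 19.7 in lipid transfer and PI3P reading, and the receptors are only 2 genes. The plot of promoter fold enrichment by role gives every library.

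**Figure D1:**
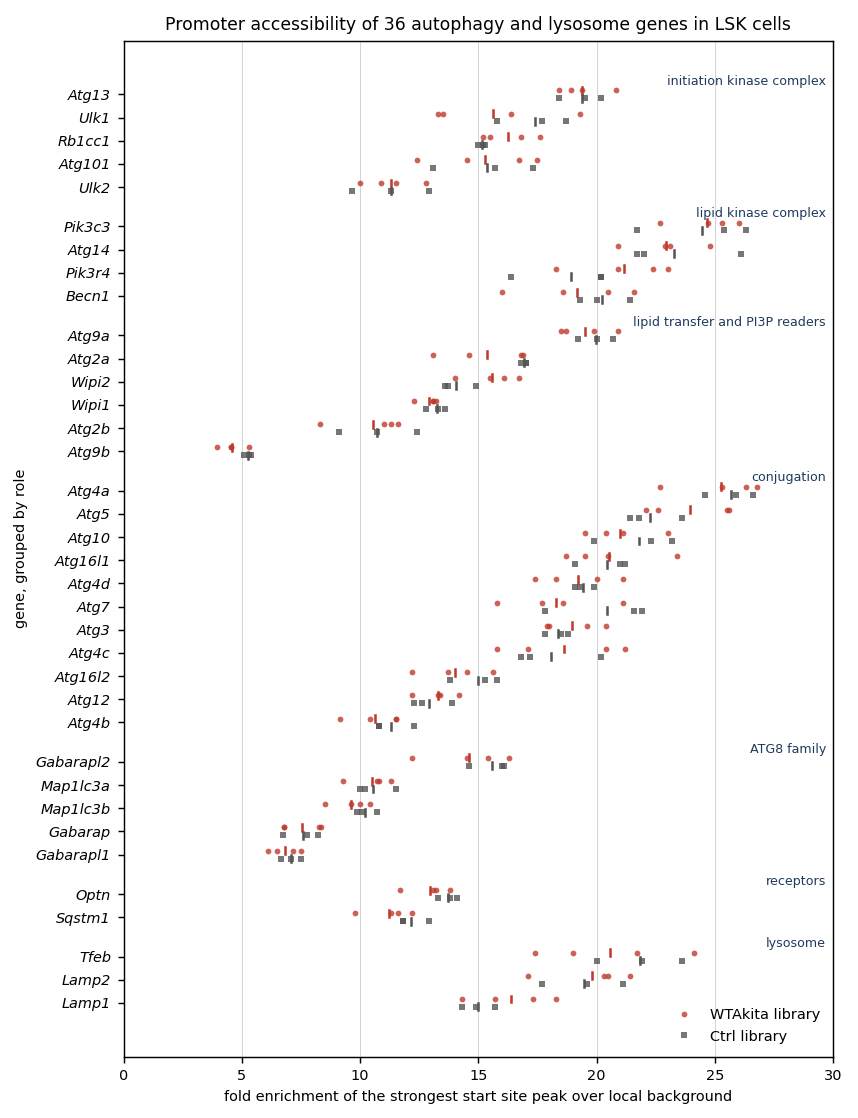
Fold enrichment of the strongest promoter peak (x axis, ratio to local background) of the 36 genes (y axis, grouped by role) in each WTAkita library (red circles, n = 4) and each Ctrl library (gray squares, n = 3), with the group mean as a short line. Atg4a, Pik3c3, Atg5 and Atg14 average over 23 and Atg9b averages 4.88, while the points of the groups intermingle for most genes.

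The most accessible promoter was that of Atg4a, a protease that processes ATG8 proteins. Its fold enrichment was 22.7, 25.3, 26.3 and 26.8 in WTAkita and 24.6, 26.6 and 25.9 in Ctrl, which places it above the 95th percentile in every library. The peak is shared with the start of Psmd10 and cannot be assigned to either gene. Pik3c3, the lipid kinase itself, had 22.7, 24.7, 26.0 and 25.3 in WTAkita and 21.7, 26.3 and 25.4 in Ctrl. Atg14, which directs that kinase to autophagy, had 20.9, 22.9, 23.1 and 24.8 in WTAkita and 21.7, 26.1 and 22.0 in Ctrl. The ranges of the groups overlapped for these 3 genes, and their neighbors in the order did not separate from them beyond the spread between libraries.

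Atg10, the E2-like enzyme that joins ATG12 to ATG5, had a fold enrichment of 19.5, 20.4, 21.1 and 23.0 in WTAkita and 23.2, 22.3 and 19.9 in Ctrl. At the other end, Atg9b, a lipid scramblase paralog with a narrow tissue range, had 5.31, 4.54, 4.53 and 3.96 in WTAkita and 5.11, 5.32 and 5.39 in Ctrl, between the 3.41st and the 9.42nd percentile. Atg9a, its broadly expressed paralog, had 18.5, 18.7, 20.9 and 19.9 in WTAkita and 19.2 to 20.7 in Ctrl. Atg9a was thus above Atg9b in every library.

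Within the ATG8 family, whose proteins are anchored in the autophagosome membrane and recruit cargo, the lowest levels were those of Gabarapl1 and Gabarap. Gabarapl1 had a fold enrichment of 6.48, 6.1, 7.52 and 7.18 in WTAkita and 7.1, 6.66 and 7.49 in Ctrl. Gabarap had 6.78, 6.8, 8.36 and 8.25 in WTAkita and 6.73, 8.22 and 7.75 in Ctrl. Neither pair of groups separated, and both genes were below the 25th percentile of promoters in all 7 libraries. Map1lc3a, Map1lc3b and Gabarapl2 averaged 10.5, 9.65 and 14.6 in WTAkita and 10.6, 10.2 and 15.6 in Ctrl. The summit of the Map1lc3b peak lay 734 bp inside the gene from its nearest start.

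Promoters were then compared between WTAkita and Ctrl, the question being whether maternal diabetes left a mark on the accessibility of these genes in adult stem and progenitor cells. No member differed after adjustment. Fold enrichments were put on a log2 scale, quantile-normalized over all genes and fitted with limma, since deposited fold enrichment is not scaled between libraries, so differences are given on the normalized log2 scale and levels on the deposited scale. Of 15825 genes, 2 passed an adjusted p under 0.05 (0.0126%), Cdh10 and Esrp1, and the smallest adjusted p of a member was 0.999 (limma). In bulk cells, fewer cells of a type with an open site and less opening per cell cannot be told apart.

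At an unadjusted p under 0.05, 5 of the 36 promoters were higher in WTAkita and 0 lower, 13.9% of the members. Over all 15825 genes the share was 3.94%, with 1.81% higher and 2.13% lower. In all, 22 members were above 0 and 14 below, 61.1% above, where 53.3% of all genes were above 0. The median difference was 0.0245 for the members and 0.006 for all genes. Normalized values of the groups did not overlap for 4 members with WTAkita above Ctrl, Pik3r4, Atg5, Wipi2 and Rb1cc1, and for 1 with WTAkita below, Atg2a. The same happened in 2.70% of all genes with WTAkita above and in 1.98% with WTAkita below.

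**Figure D2:**
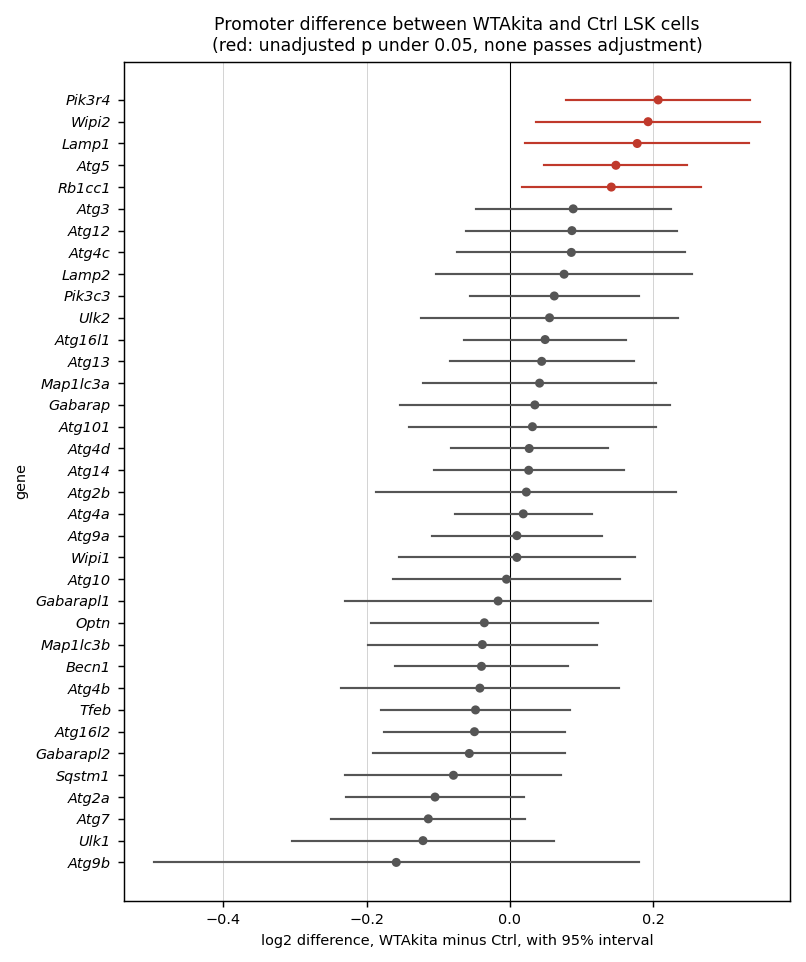
Log2 difference in promoter fold enrichment, WTAkita minus Ctrl (x axis), for the 36 genes (y axis), with the 95% interval of the limma fit as a line. Red marks the 5 genes at an unadjusted p under 0.05, of which Atg5 lies at -0.0146, still 0.1187 above the median of all genes, when summit pileup scaled to tag number is used instead, and the other 31 intervals span 0.

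Pik3r4 had the largest positive statistic. It encodes the regulatory subunit that holds the PIK3C3 complex together. The gene lies at chr9:105642978-105687657 on the plus strand, and the summit of its promoter peak was 98 bp upstream of the nearest start. Its fold enrichment was 18.3, 20.9, 23.0 and 22.4 in WTAkita and 16.4, 20.2 and 20.2 in Ctrl. In both groups the first replicate was the lowest library, and 3 of 4 WTAkita libraries were above every Ctrl library before normalization. The normalized log2 difference was 0.21 (95% interval 0.08 to 0.34, unadjusted p = 0.00462, adjusted p = 0.999, limma).

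Atg5, which is joined to ATG12 to form the scaffold that places LC3 on the membrane, followed. Its fold enrichment was 22.1, 22.6, 25.6 and 25.5 in WTAkita and 21.4, 23.6 and 21.8 in Ctrl. The deposited values overlapped through Ctrl replicate 2, and the normalized ones did not overlap. The log2 difference was 0.15 (95% interval 0.05 to 0.25, unadjusted p = 0.00754, adjusted p = 0.999, limma). With summit pileup scaled to tag number it was -0.0146, which is 0.1187 above the median of all genes on that scale (-0.1333).

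Wipi2, a PI3P reader that recruits ATG16L1, had a fold enrichment of 14.0, 16.1, 16.7 and 15.5 in WTAkita and 13.7, 13.6 and 14.9 in Ctrl, with a log2 difference of 0.19 (95% interval 0.04 to 0.35). Lamp1, an abundant glycoprotein of the lysosomal membrane and the gene with 4 E-boxes, had 15.7, 14.3, 17.3 and 18.3 in WTAkita and 14.9, 14.3 and 15.7 in Ctrl, with a difference of 0.18 (0.02 to 0.33). Rb1cc1, the FIP200 scaffold of the ULK complex, had 15.2, 15.5, 17.6 and 16.8 in WTAkita and 15.0, 15.3 and 15.2 in Ctrl, with a difference of 0.14 (0.02 to 0.27). In these 3 genes the WTAkita libraries reached down into the Ctrl range and their upper values lay above it. The peak of Rb1cc1 is also within 1000 bp of the start of the noncoding 4732440D04Rik.

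The 5 members with the lowest statistic were Atg7, Atg2a, Ulk1, Sqstm1 and Atg9b, and their intervals all span 0. Atg2a, a lipid channel between the endoplasmic reticulum and the growing membrane, had a fold enrichment of 13.1, 14.6, 16.9 and 16.8 in WTAkita and 16.8, 17.0 and 17.0 in Ctrl. Its 3 Ctrl libraries were nearly identical, and WTAkita replicates 1 and 2 were the low ones. The log2 difference was -0.10 (95% interval -0.23 to 0.02).

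Ulk1, the kinase that starts autophagy, had a fold enrichment of 13.5, 13.3, 19.3 and 16.4 in WTAkita and 15.8, 17.7 and 18.7 in Ctrl, with a log2 difference of -0.12 (-0.30 to 0.06). Without WTAkita replicate 3 it was -0.1962 and past the unadjusted threshold (unadjusted p = 0.0144, limma), and without WTAkita replicate 2 it was -0.0702. The WTAkita libraries of Ulk1 spanned the whole Ctrl range, with replicate 3 the highest of all 7. This Ulk1 peak lay at an internal start, with its summit near chr5:110788822, while the outermost start is at 110810097. The site at the outermost start, chr5:110809706-110810483, was weaker and had a log2 difference of -0.0004 in the fit over single sites. Sqstm1, the p62 receptor that carries ubiquitinated cargo, had 9.79, 11.3, 12.2 and 11.6 in WTAkita and 11.8, 12.9 and 11.8 in Ctrl, with a difference of -0.08 (-0.23 to 0.07). Its peak is shared with the start of Mgat4b. Atg9b, whose levels are given above, had the widest interval of the members, -0.16 (-0.50 to 0.18), and its difference was -0.2876 without WTAkita replicate 1 and -0.0585 without WTAkita replicate 4. For the other 35 members the interval lay within -0.35 and 0.35.

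Atg7, the E1-like enzyme of the conjugation cascade, had a fold enrichment of 15.8, 17.7, 18.6 and 21.1 in WTAkita and 17.8, 21.6 and 21.9 in Ctrl, with a log2 difference of -0.11 (-0.25 to 0.02). It was past the unadjusted threshold without WTAkita replicate 4, at -0.1444 (unadjusted p = 0.0464, limma), and without Ctrl replicate 1, at -0.1671 (unadjusted p = 0.0247, limma). These values do not all come from one peak. The summit of the strongest peak was at the first start of the gene, near chr6:114643097, in 5 libraries, at position 114648719 in WTAkita replicate 1 and at 114683922 in Ctrl replicate 1, each within 1000 bp of another annotated start. Atg16l2, an ATG16L1 paralog, was the only other such gene. Its strongest peak was at the outermost start in WTAkita replicates 2 and 3 and at an internal start in the other libraries. It averaged 14.0 ± 1.43 in WTAkita and 14.9 ± 1.05 in Ctrl (SD, n = 4 and 3).

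For the remaining members every interval spans 0. In the conjugation cascade, Atg3, the E2-like enzyme that loads LC3, averaged 19 in WTAkita and 18.4 in Ctrl (log2 difference 0.09), Atg12 averaged 13.3 in WTAkita and 12.9 in Ctrl (0.09), and Atg16l1 averaged 20.5 in WTAkita and 20.4 in Ctrl (0.05). In the lipid kinase complex, Becn1 averaged 19.2 in WTAkita and 20.2 in Ctrl (-0.04). Tfeb, the transcription factor that drives lysosomal genes, averaged 20.6 ± 2.94 in WTAkita and 21.9 ± 1.81 in Ctrl (SD, n = 4 and 3), a difference of -0.05. The lysosomal Lamp2, a lysosomal membrane protein with a part in fusion and in chaperone-mediated autophagy, averaged 19.8 in WTAkita and 19.4 in Ctrl (0.08).

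Among further kinase complex genes, Ulk2, the ULK1 paralog, averaged 11.3 in WTAkita and 11.3 in Ctrl, and the regulatory subunits Atg13 and Atg101 averaged 19.4 and 15.3 in WTAkita and 19.4 and 15.4 in Ctrl. The lipid transfer gene Atg2b averaged 10.6 in WTAkita and 10.7 in Ctrl, and the PI3P reader Wipi1 averaged 12.9 in WTAkita and 13.2 in Ctrl. The ATG8 proteases Atg4b, Atg4c and Atg4d averaged 10.6, 18.6 and 19.2 in WTAkita and 11.3, 18 and 19.4 in Ctrl. Log2 differences of these 8 genes lay between -0.04 and 0.09.

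Counts at the unadjusted threshold depended on single libraries. The 5 members higher in WTAkita became 3 without WTAkita replicate 1, 3 without WTAkita replicate 2, 2 without Ctrl replicate 2 and 4 without Ctrl replicate 3, where 0 were lower. They became 4 without WTAkita replicate 3, 4 without WTAkita replicate 4 and 6 without Ctrl replicate 1, each with 1 lower. Over all genes, 3.25% to 4.77% were past the threshold in these 7 fits. Without the 3 least enriched libraries (WTAkita replicates 1 and 2 and Ctrl replicate 1) they were 3, a setting chosen after the data were seen. Pik3r4 and Atg5 were among them in each of these 8 fits. With summit pileup scaled to tag number in place of fold enrichment, the median of all genes moved to -0.1333 with 9.08% of them above 0, the members stood at -0.104, or 0.0292 above all genes, with 24 members above that median and 12 below, and 0 members were past the threshold in either direction, beside 0.758% of all genes. Pik3r4 was then at 0.2401, or 0.3734 above all genes.

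Peaks shared between genes limit what can be assigned to a member. For 8 members the promoter peak was also within 1000 bp of the start of another protein-coding gene, Gskip for Atg2b, Slc35a5 for Atg3, Psmd10 for Atg4a, Thap4 for Atg4b, Ankzf1 for Atg9a, Ap3s1 for Atg12, Harbi1 for Atg13 and Mgat4b for Sqstm1. None of the 5 members at the unadjusted threshold is in that group.

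Away from the starts, accessibility inside the genes was more uneven. A gene body peak is any other peak between the ends of the gene, and 25 of the 36 members had one in all 7 libraries, 6 in some libraries and 5 (Map1lc3a, Atg4d, Gabarap, Becn1, Atg101) in none. The median member stood at the 36.2nd to 47.5th percentile of genes with a body peak, lower than at promoters. The most accessible body peak was in an intron of Atg10, 157993 bp from the nearest start, near chr13:90967446-90968072. Its fold enrichment was 23.4, 28.3, 31.9 and 32.0 in WTAkita and 28.9, 35.4 and 30.6 in Ctrl, above that of the Atg10 promoter and at least at the 97.6th percentile in every library.

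**Figure D3:**
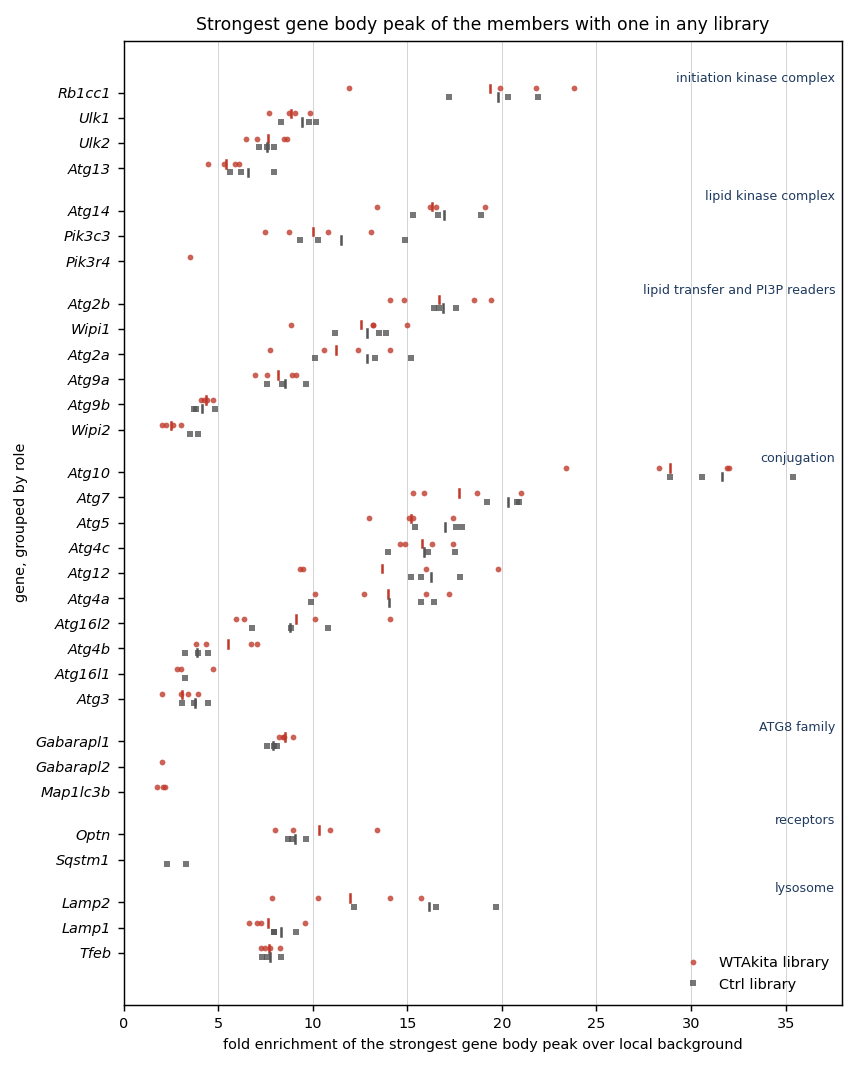
Fold enrichment of the strongest gene body peak (x axis, ratio to local background) for the 31 members with one in any library (y axis, grouped by role), in WTAkita libraries (red circles) and Ctrl libraries (gray squares), with group means as lines where every library of the group had a peak. Atg10 stands farthest right at 23.4 to 35.4, and Pik3r4, Gabarapl2, Map1lc3b and Sqstm1 show points of a single group between 1.76 and 3.53.

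No body difference passed adjustment. Of 10965 genes tested, 1 did (0.00912%), Esrp1 again, and the adjusted p of every member was 1.00 (limma). At an unadjusted p under 0.05, 3.24% of all genes were past the threshold, 1.38% higher and 1.86% lower, and of the 25 members 1 was higher and 1 lower. There were 14 members above 0 and 11 below, with a median of 0.0141 beside 0.0042 for all genes. Normalized groups did not overlap for Optn and Atg4b, both with WTAkita above, which happened in 2.19% of all genes, and for 0 members with WTAkita below, against 2.31% of all genes.

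Atg4b, another ATG8 protease, had a body peak in an intron at chr1:93764581-93765272. The peak was weak, with 12 to 30 tags at the summit and between the 4.90th and the 25.7th percentile of body peaks. Its fold enrichment was 3.83, 4.37, 7.07 and 6.75 in WTAkita and 3.93, 4.45 and 3.24 in Ctrl. The difference came from WTAkita replicates 3 and 4, while replicates 1 and 2 were inside the Ctrl range on the deposited scale. The log2 difference was 0.48 (95% interval 0.11 to 0.86, unadjusted p = 0.0155, adjusted p = 1.00, limma). It missed the unadjusted threshold without WTAkita replicate 3, at 0.3897, and without Ctrl replicate 3, at 0.3495.

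Lamp2 had a body peak in an intron, at chrX:38438404-38438826, with a fold enrichment of 7.87, 10.3, 14.1 and 15.7 in WTAkita and 12.2, 16.5 and 19.7 in Ctrl. Its values spread widely in both groups, and WTAkita replicates 1 and 2 were the only libraries below 12. The log2 difference was -0.36 (95% interval -0.67 to -0.06, unadjusted p = 0.0233, adjusted p = 1.00, limma), opposite in sign to its promoter. It missed the unadjusted threshold without WTAkita replicate 1, at -0.2711, and without Ctrl replicate 3, at -0.2303, and reached -0.4694 without Ctrl replicate 1.

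Optn, the optineurin receptor known from mitophagy, had a body peak fold enrichment of 8.01, 8.98, 10.9 and 13.4 in WTAkita and 8.69, 9.67 and 8.89 in Ctrl, with a log2 difference of 0.24 (-0.03 to 0.50). These values do not come from a single peak. The strongest was at chr2:5040781-5041147 in WTAkita replicate 2 and Ctrl replicate 1, and at chr2:5044828-5045871 in the rest. In the fit over single sites, the log2 differences there were 0.007 and 0.24. Gabarapl1 had a body peak fold enrichment of 8.24, 8.44, 8.94 and 8.48 in WTAkita and 7.59, 8.11 and 7.95 in Ctrl, with a difference of 0.18 (-0.13 to 0.50). All 4 WTAkita libraries of Gabarapl1 were above all 3 Ctrl libraries on the deposited scale, and the normalized values overlapped.

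Atg12, the ubiquitin-like partner of ATG5, had a body peak fold enrichment of 9.48, 9.31, 16 and 19.8 in WTAkita and 15.7, 17.8 and 15.2 in Ctrl, with a log2 difference of -0.23 (-0.57 to 0.10). WTAkita replicates 1 and 2 were well below the rest, and without the 3 least enriched libraries the difference was 0.0902. Atg3 had 2.02, 3.42, 3.06 and 3.92 in WTAkita and 3.1, 4.45 and 3.73 in Ctrl, with a difference of -0.29 (-0.70 to 0.13) and with strongest peaks at different places.

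Body peaks called in some libraries were weak. Map1lc3b, the LC3B gene, had one in WTAkita replicates 1, 3 and 4, at 2.17, 1.76 and 2.1, and in no Ctrl library. Sqstm1 had one in 0 of 4 WTAkita libraries and in Ctrl replicates 2 and 3, at 3.29 and 2.3. Pik3r4 had one at 3.53 in WTAkita replicate 3 alone, and Gabarapl2 one at 2.02 in WTAkita replicate 1 alone. All of these were at or below the 6.99th percentile of body peaks in their libraries.

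Atg16l1, which places the conjugation complex on the membrane, had a body peak at 3.03, 2.85 and 4.71 in WTAkita replicates 1, 2 and 3 and at 3.24 in Ctrl replicate 3. Wipi2 had one at 2.22, 2.04, 3.06 and 2.63 in WTAkita and at 3.93 and 3.49 in Ctrl replicates 1 and 3, at more than one place. Ctrl replicate 2 had no Wipi2 body peak, so the gene was not in the main body fit. With calls in at least 5 libraries allowed, its body log2 difference was -0.6327 (unadjusted p = 0.00594, limma). Without Ctrl replicate 2 it was -0.6403 (unadjusted p = 0.00541, limma). Neither passed adjustment, and the peaks compared were not all at the same place.

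At the level of single sites, 158 consensus sites lay at the member loci, 57 at starts and 101 in gene bodies, and 135 of them were called in all 7 libraries. Consensus sites required a call in at least 75% of libraries within WTAkita or within Ctrl, and calls were joined at 50% overlap. None was called in all libraries of one group and in 0 of the other. Start sites stood at the 80.3rd percentile and body sites at the 51.4th percentile of all sites (medians).

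The number of sites followed gene length in part. Atg7, over 217.5 kb, had 25, Atg10, over 288.6 kb, had 17, Atg5 had 10, Wipi1 had 9 and Tfeb had 8, while 8 members had a single site. Per 10 kb of gene, body sites were densest in Atg9b at 2.51 and Wipi1 at 2.07, against 0.92 in Atg7 and 0.55 in Atg10. Wipi1, the WIPI paralog of Wipi2, thus had 8 body sites over 38.64 kb, where Wipi2 had 0 over 42.89 kb.

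**Figure D4:**
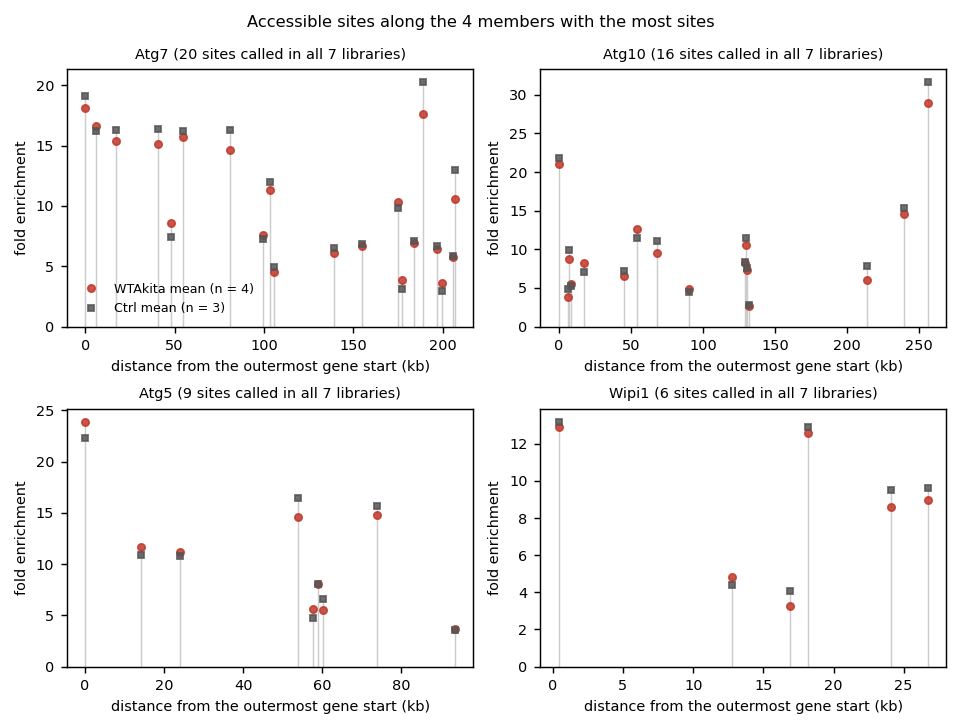
Mean fold enrichment (y axis) of each site called in all 7 libraries against its distance from the outermost gene start (x axis, kb), for the 4 members with the most sites, in WTAkita (red circles, n = 4) and Ctrl (gray squares, n = 3). Group means lie close together along each gene, and the highest site of Atg10, averaging 28.9 in WTAkita and 31.7 in Ctrl, is the rightmost.

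None of the 135 sites passed an adjusted p under 0.05, nor did any of the 109159 sites genome-wide (0.00%, limma). At an unadjusted p under 0.05, 4 were higher and 1 lower in WTAkita, beside 3.87% of all sites, 1.77% higher and 2.11% lower. There were 76 above 0 and 59 below, with a median of 0.0167, beside 0.0064 for all sites. Normalized groups did not overlap for 5 sites with WTAkita above and 2 with WTAkita below, beside 2.46% and 2.26% of all sites.

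The 4 sites with the highest statistic included the promoters of Pik3r4 (chr9:105642347-105643634, log2 difference 0.23) and Atg5 (chr10:44268081-44268894, 0.17) and the Atg4b intron (0.50), which are the same peaks as above. With pileup scaled to tag number the Atg5 site was at -0.0146, where the median of all sites was -0.1192. The site not yet described was in an intron of Rb1cc1, chr1:6222735-6223478, with a fold enrichment of 7.46, 7.79, 8.48 and 6.42 in WTAkita and 5.59, 7.16 and 5.13 in Ctrl. Its log2 difference was 0.41 (95% interval 0.03 to 0.79, unadjusted p = 0.0368, adjusted p = 1.00, limma), and Ctrl replicate 2 reached into the WTAkita range. Rb1cc1 thus had the same sign at its promoter and at this intron.

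Of the 4 sites with the lowest statistic, the Lamp2 intron came first, at -0.38 in this fit. An Atg10 intron site at chr13:91217625-91218105 had a fold enrichment of 2.9, 3.59, 4.87 and 3.77 in WTAkita and 4.76, 5.23 and 4.48 in Ctrl (log2 difference -0.34, interval -0.70 to 0.01). An Atg7 intron site at chr6:114849408-114850370 had 9.47, 10.5, 10.9 and 11.6 in WTAkita and 11.5, 13.4 and 14.1 in Ctrl (-0.22, interval -0.44 to 0.01). Both sites lie in genes of the conjugation cascade, and both intervals reach 0.
A Wipi1 intron site at chr11:109594823-109595324 had 2.67, 3.27, 3.31 and 3.84 in WTAkita and 3.89, 4.17 and 4.21 in Ctrl (-0.29, interval -0.61 to 0.03). Every Ctrl library was above every WTAkita library there, the nearest values being 3.84 and 3.89.

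The 3 lists of related genes, kept apart from the members, were read in the same promoter fit, and 0 genes of any list passed an adjusted p under 0.05 (limma). Of 39 genes for lysosomal enzymes, membrane proteins and the v-ATPase, 32 were above 0 and 7 below, with a median of 0.0295, and 1 was at an unadjusted p under 0.05. That gene was Psap, the precursor of the saposins, with a log2 difference of 0.20 (unadjusted p = 0.00651, adjusted p = 0.999, limma). Next above was Ctsb, a lysosomal cysteine protease, at 0.13. The share above 0 was 82.1%, beside 61.1% for the members and 53.3% for all genes, in differences that are small for each gene.

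Of 32 nutrient and energy control genes, 14 were above 0 and 18 below, with a median of -0.0053 and 0 at the unadjusted threshold. Wdr24 and Lamtor4, of the GATOR2 and Ragulator complexes, were farthest above at 0.16 and 0.11, and Nprl3 and Lamtor3, of the GATOR1 and Ragulator complexes, were farthest below at -0.13 and -0.09. Of 28 other autophagy genes, 17 were above 0 and 11 below, with a median of 0.0244. Wdr45, a further WIPI family member, was at 0.18 (unadjusted p = 0.00397, adjusted p = 0.999, limma) and Tollip, a ubiquitin-binding adaptor, at 0.09, while Vps39, of the HOPS tethering complex, was at -0.16 and Rubcn, an inhibitor of autophagosome maturation, at -0.07.

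The libraries held 137963 to 151552 peaks in WTAkita and 141709 to 147698 in Ctrl, from an estimated 40500000 to 53100000 tags in WTAkita and 37600000 to 51900000 in Ctrl. Median fold enrichment was lowest in WTAkita replicate 1, at 5.25, and reached 6.59 in WTAkita replicate 4 and 6.48 in Ctrl, and 21 of the 36 member promoters had their lowest value in WTAkita replicate 1. All 10 LSK markers had a promoter peak in every library, with a summed fold enrichment of 99.2 to 126 in WTAkita and 113 to 119 in Ctrl. Of markers of other cells, all 5 erythroid and all 5 macrophage genes had one in every library, 3 of 5 B cell, 2 of 4 T cell and 1 of 5 neutrophil genes did, and S100a9, Camp, Ngp, Ms4a1 and Cd8a had none in any. Summed fold enrichment was 58.1 to 77.4 in WTAkita and 71.1 to 76.9 in Ctrl for erythroid genes, 29.6 to 40.8 in WTAkita and 35.6 to 40.1 in Ctrl for macrophage genes, 30.9 to 37.8 in WTAkita and 35.4 to 38.3 in Ctrl for B cell genes, 20.2 to 23.6 in WTAkita and 15.7 to 23.0 in Ctrl for T cell genes, and 13.8 to 20.2 in WTAkita and 13.7 to 20.1 in Ctrl for neutrophil genes. The part of other cells in the member values was not tested.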

How the data were processed

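ATAC-Seq libraries of 4 WTAkita and 3 Ctrl LSK samples were analyzed from peak lists. Per the submitters' processing notes, the authors used cutadapt 1.9.1 within Trim Galore 0.4.2 for trimming, Bowtie2 2.3.4.1 for alignment to mm10 and MACS2 2.1.4 for peaks. Duplicate reads were dropped, and each library was called alone at a p limit of 0.01 with 150 bp extension and without input. Fold enrichment, as deposited, is a ratio with a pseudocount of 1 and no scaling across libraries. Summit p-values and q-values, deposited on a −log10 scale, depend on depth. The deposited score and summit offset served only to describe peaks.

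Several summits of the same interval counted as 1 peak. Summit pileups solved from the deposited values were whole, within 0.02, for at least 99.996% of peaks, and tags were estimated from the background level and a genome of 1870000000 bp. Intervals are 95% confidence intervals of the limma difference between group means and rest on the variation between libraries. Pairs of libraries correlated at 0.963 to 0.975 and none was identical.

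Genes came from GENCODE vM21. Values present in all 7 libraries were quantile-normalized on the log2 scale and tested with limma 3.58.1 (trend, two-sided, Benjamini-Hochberg over all features) in R 4.3.3. The study's count test was not used, since peak lists hold no read counts. Members, lists and markers were chosen with earlier results of these data known. Genes named by rule are the 5 highest and 3 lowest by mean promoter level, the 5 and 5 by moderated statistic at promoters, 3 and 3 in bodies, 4 and 4 sites, those with a peak in some libraries, and the 2 farthest above and 2 below 0 in each other list, given by their differences. The 2 farthest below 0 among the lysosomal genes are not reported here. The fit was tested on simulated data. Same-numbered libraries correlated at 0.208, 0.0254 and 0.0618 in their deviations, and WTAkita and Ctrl libraries of different number at -0.180 to 0.100. The main fit did not take numbers as pairs, and a fit with the replicate block is given further on. Whether same-numbered libraries shared a batch was not tested. Alternatives covered the window, starts, threshold, overlap, minimum, normalization, pileup, trend, block and each library left out. Overlaps were computed in Python 3.11.15 with pandas 2.3.3 and numpy 2.4.6. RNA-seq and bisulfite data were not analysed here.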

Additional observations from a re-analysis of the deposited data

Results flagged for a closer look

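Of 61 promoter and body values tested over the 4 WTAkita libraries, 3 had 1 library set apart from the others, where chance alone sets apart about 1 in 20. For the Atg4c promoter, WTAkita replicate 2 was lowest, at a normalized log2 level of 4.06 (deposited fold enrichment 15.8), against 4.27 to 4.31 in the other WTAkita libraries. At the Lamp2 promoter the same library was highest, at 4.51, against 4.26 to 4.27. For the Optn gene body, WTAkita replicate 4 was highest, at 3.55, against 3.31 to 3.32, with strongest peaks at different places.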

How the results depend on the processing

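No member promoter, body or site passed an adjusted p under 0.05 in any setting run. With summit pileup scaled to tag number, the medians of all promoters, bodies and sites moved to -0.1333, -0.1215 and -0.1192, and those of the members to -0.104, -0.1703 and -0.1046, with 0 members past the unadjusted threshold in either direction, beside 0.758%, 0.648% and 0.878% of all. Above 0 were then 9.08%, 17.3% and 21.7% of all promoters, bodies and sites, against 53.3%, 51.4% and 52.1% without it. The Atg5 promoter and the Atg5 site were then at -0.0146, above the medians of all promoters and sites. With the replicate block, 5 promoters were higher and 1 lower, 0 bodies higher and 2 lower, and 6 sites higher and 4 lower, beside 6.84%, 6.30% and 6.21% of all promoters, bodies and sites past the threshold (3.94%, 3.24% and 3.87% without the block), and genes called over the genome numbered 12 promoters, against 2 without the block. The Lamp2 body was then at -0.4353 and the Atg9b promoter at -0.0579. Using the outermost start gave 3 promoters higher and 0 lower among 31 members tested (4.09% of all). A −log10 p of at least 5 gave 0 bodies higher and 1 lower among 23 members tested (3.21% of all). Without trend, limma gave 2 bodies higher and 1 lower (3.73% of all) and 5 sites higher and 3 lower (4.24% of all). Calls in at least 5 libraries gave 1 body higher and 2 lower (3.36% of all). Site counts under that rule were 4 higher and 3 lower (3.93% of all). With the 3 least enriched libraries left out (chosen after the data were seen), 3 promoters were higher and 0 lower (4.08% of all), 6 sites were higher and 3 lower (4.87% of all), and the Atg12 body difference was 0.0902. The causes were not tested. Leaving out each library in turn gave 2 to 6 promoters higher and 0 to 1 lower (median 0.0088 to 0.0281), 0 to 1 bodies higher and 0 to 3 lower (median -0.0306 to 0.0219), and 1 to 7 sites higher and 0 to 3 lower (median -0.0031 to 0.0416). Past the threshold in these fits were 3.25% to 4.77% of all promoters, 2.61% to 4.79% of all bodies and 3.46% to 4.71% of all sites. Over all genes, promoters called numbered 2, and 8 with pileup, 14 without WTAkita replicate 4, 4 without Ctrl replicate 2, 4 without the 3 libraries and 0 with a 500 bp window or the outermost start. Bodies called numbered 1, and 9 with pileup, 3 without WTAkita replicate 1, 2 without WTAkita replicate 3 and 0 without trend, without Ctrl replicate 3 or without the 3 libraries. Sites called numbered 0, and 6 with the block, 5 with any overlap and 7 without WTAkita replicate 4. The body difference of Atg12 was -0.1079 without WTAkita replicate 2 and -0.3662 without WTAkita replicate 4, that of Atg3 was -0.1367 without WTAkita replicate 1, and that of Gabarapl1 was 0.1038 without WTAkita replicate 1. Of the values of single genes and sites, 369 kept their sign and 3 did not. Member promoter summits held 97 to 677 tags, and the median standard error of the promoter differences was 0.0677; the part of depth in it was not tested.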
